A study of Mus musculus with 6 samples.

Results

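The cytochrome P450 enzymes of families 1, 2 and 3 were followed per mouse in hepatocyte nuclei of a diet-induced mouse model of fatty liver and hepatocellular carcinoma (HCC). Members were all genes whose symbol is Cyp1, Cyp2 or Cyp3 followed by a letter, pseudogenes left out, that had at least 30 unique transcript counts (UMIs) summed over every barcode of the 6 libraries. Cyp1a2, Cyp2e1 and Cyp2f2 were set aside by name. Of 61 such symbols 49 were members, among 32285 genes in the tables, 3 were set aside and 9 lay under the minimum. Just inside it were Cyp2c65 with 30 UMIs, Cyp2c66 with 31, Cyp2g1 and Cyp2j13 with 32 each and Cyp2t4 with 34, and just outside were Cyp2j7 and Cyp3a41a with 13 each and Cyp2b19 with 12. The members were thus chosen by their symbols and by a measured value, the summed UMIs, so a member that has transcripts in 1 group of mice may have passed through that group, and counts over the members are given as descriptions.

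Single nuclei RNA sequencing was performed on the livers of 6 male DIAMOND mice, a cross of 129A1/SvIm and C57BL/6J, with 1 library per mouse and 2 mice per group. The Ctrl mice had a chow diet for 40 weeks, the Pre-T mice were on a Western diet (WD), rich in fat and given together with sugar water, for the same 40 weeks, and the Post-T mice were on the WD for 48 weeks and had developed HCC. All mice started their diet at 2 months of age, so the Post-T mice were also older, and the groups lived in different cages, so that diet and cage cannot be told apart in the comparisons with Ctrl, nor tumor stage, time on diet, age and cage in those with Post-T. The Post-T libraries carry the word tumor in their titles and liver as their source, and whether the nuclei came from tumor or from the liver around it is not given in the sources used here.

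Cytochrome P450 enzymes are heme proteins of the endoplasmic reticulum that insert 1 oxygen atom into lipophilic molecules, with electrons from NADPH delivered by the reductase Por. Families 1 to 3 clear most drugs and foreign compounds and also oxidise steroids, bile acids, retinoids and arachidonic acid. In the liver many of them follow the lobule, with more transcript around the central vein than around the portal vein, and in mice several depend on sex through the pattern of growth hormone release. The nuclear receptors Nr1i3 (CAR) and Nr1i2 (PXR) and the aryl hydrocarbon receptor Ahr induce subsets of them.

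Hepatocyte nuclei numbered 4058 and 4133 in the Ctrl mice, 1939 and 1435 in the Pre-T mice and 2597 and 2887 in the Post-T mice, with 8218543 to 16618419 UMIs per mouse and a median of 1658 to 6188 UMIs per nucleus. These numbers depend on how nuclei were named. Pre-T 2 held 2450 further nuclei in clusters of mixed markers, had 3885 hepatocyte nuclei with those added and had 3822 with Cyp genes among the variable genes, while Post-T 1 had 1242 at Leiden resolution 2 and 1144 with nuclei of 5000 or more genes kept. Naming each nucleus on its own left 410 to 2639 per mouse. The summed hepatocyte markers ranged from 30660 to 34127 CPM (the UMIs of a gene scaled to 1000000 UMIs of that mouse's hepatocyte nuclei) in Ctrl, from 13307 to 19946 CPM in Pre-T and from 15989 to 16693 CPM in Post-T. The nuclei of each group lay in clusters of their own (clusters 0, 7, 12 and 18 held Ctrl, 1 both Pre-T mice, 21 Pre-T 1, 2 Post-T 1 and 10 and 13 Post-T 2), though no Cyp1, Cyp2 or Cyp3 gene was used for clustering. Libraries shared 7 to 21 barcodes in pairs. Endothelial nuclei, which should lack most of these enzymes, had 0.204% to 0.729% of their UMIs from the members against 0.605% to 1.32% in hepatocyte nuclei, with a median of 1079.5 to 1878 UMIs per endothelial nucleus. The endothelial values are therefore given beside the main results. Within the hepatocyte sums, T cell markers ran from 10.2 to 16.6 CPM in Ctrl, 99.9 to 153 CPM in Pre-T and 112 to 144 CPM in Post-T, and erythroid markers from 109 to 247, 234 to 832 and 248 to 2180 CPM, while endothelial markers overlapped between all groups at 136 to 211 CPM. In the same order of groups, macrophage markers were at 36.02 to 45.6, 97.5 to 330 and 18.3 to 176 CPM, neutrophil markers at 1.13 to 3.31, 11.1 to 13.3 and 4.15 to 10.7 CPM, B cell markers at 22.8 to 34.8, 9.87 to 14.1 and 8.81 to 13.7 CPM and cycling markers at 3.90 to 3.97, 12.4 to 12.5 and 11.7 to 29.8 CPM. Plasma cell markers were at 59.4 to 98.8, 61.2 to 65.1 and 18.3 to 25.6 CPM in that order. Mesothelial markers were at 4.16 to 5.96, 1.46 to 2.21 and 0.845 to 0.931 CPM, and monocyte markers at 3.25 to 3.72, 11.2 to 16.5 and 2.36 to 9.30 CPM. The part of these in the results was not tested. Fewer transcripts per nucleus and fewer nuclei of 1 hepatocyte kind cannot be told apart in sums per mouse.

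The members sit mostly in tandem arrays, with 15 on chromosome 19 (the Cyp2c genes), 11 on chromosome 7 (Cyp2a, Cyp2b and others), 7 on chromosome 15 (Cyp2d), 6 on chromosome 4 (Cyp2j) and 6 on chromosome 5 (Cyp3a), by GENCODE M21 on GRCm38. Neighbours within an array can be near-identical. Of all 75-base words in the transcripts of Cyp2c40, Cyp2c69, Cyp2c67 and Cyp2c68, 45.9%, 42.6%, 36.01% and 28.5% also occur in another gene, and the figures are 22.3% for Cyp2a5, 12.9% for Cyp2d9 and 12.3% for Cyp3a25. Counts of these genes are uncertain for that reason, and the share of their UMIs affected was not measured. The share is 1.86% for Cyp2c38, 2.98% for Cyp2c39 and 0.172% for Cyp2u1, and 0 for Cyp2c23, Cyp2c70 and every Cyp2j member.

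All 49 members together held 1.20% and 0.990% of the hepatocyte UMIs in the Ctrl mice, 0.973% and 0.683% in the Pre-T mice, and 0.605% and 1.32% in the Post-T mice. The groups overlapped, since the Post-T mice gave both the lowest and the highest value. The make-up of this sum differed between groups. Cyp3a25, a Cyp3a enzyme of liver and gut, made up 37.0% and 42.5% of all member UMIs in Ctrl, 19.6% and 18.0% in Pre-T, and 9.08% and 6.99% in Post-T. Cyp2c38, an arachidonic acid oxidase, made up 0.883% and 3.79% in Ctrl, 26.4% and 18.2% in Pre-T, and 43.4% and 47.8% in Post-T. In each WD mouse the share of Cyp2c38 was above, and that of Cyp3a25 below, both Ctrl values, and the same held between Post-T and Pre-T. These are shares of UMIs and are not scaled by gene length, so they rank mice for a gene and not the genes among themselves.

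The first comparison asked what 40 weeks of WD did before tumors, and here 0 of the 47 members tested passed edgeR's quasi-likelihood test at a Benjamini-Hochberg adjusted p of 0.05, beside 0% of the 19034 genes tested. At an unadjusted p under 0.05 there were 19 members, beside 15.2% of all genes, and DESeq2 called 13 members, beside 4.93%. Post-T against Ctrl gave 7 members of 47 by edgeR, beside 2.10% of all genes, of which 6 were lower (background 1.32%) and 1 was higher (0.783%). At an unadjusted p under 0.05 there were 19 (24.2%), and DESeq2 called 18, all 7 included, beside 11.9%. Post-T against Pre-T gave 0 members in either direction, beside 0.0736% of all genes (0.021% higher and 0.0525% lower), with 12 at an unadjusted p under 0.05 (21.1%) and 9 by DESeq2 (9.49%). Both comparisons with Ctrl use the same Ctrl mice.

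Counted without a test over the 47 members, both Pre-T mice lay above both Ctrl mice for 13 (44.9% of all genes) and below for 16 (16.2%), the Post-T mice above Ctrl for 7 (21.2%) and below for 17 (30.4%), and Post-T above Pre-T for 6 (11.5%) and below for 18 (42.2%). Among 28 members with a mean of 10 CPM or more, both Pre-T mice lay above both Ctrl mice for 7 (background 46.7%) and below for 13 (17.1%). For Post-T against Ctrl the counts were 7 above (25.4%) and 12 below (26.3%), and for Post-T against Pre-T 6 above (15.6%) and 12 below (39.2%). Members below Ctrl were thus a larger part of the 28 than of the 8948 genes with that mean in both WD groups. Over all 47 members, though, the part of Post-T below Ctrl, 17 of 47, was near its background of 30.4%. In Post-T against Pre-T the part below was close to the background. By plain library size instead of the TMM factors the median log2 difference of all genes is 0.31, -0.06 and -0.37 in the 3 comparisons, where it is 0.02, -0.02 and -0.04 with them, and at most 0.0132 in size with RLE or DESeq2 size factors.

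**Figure D1:**
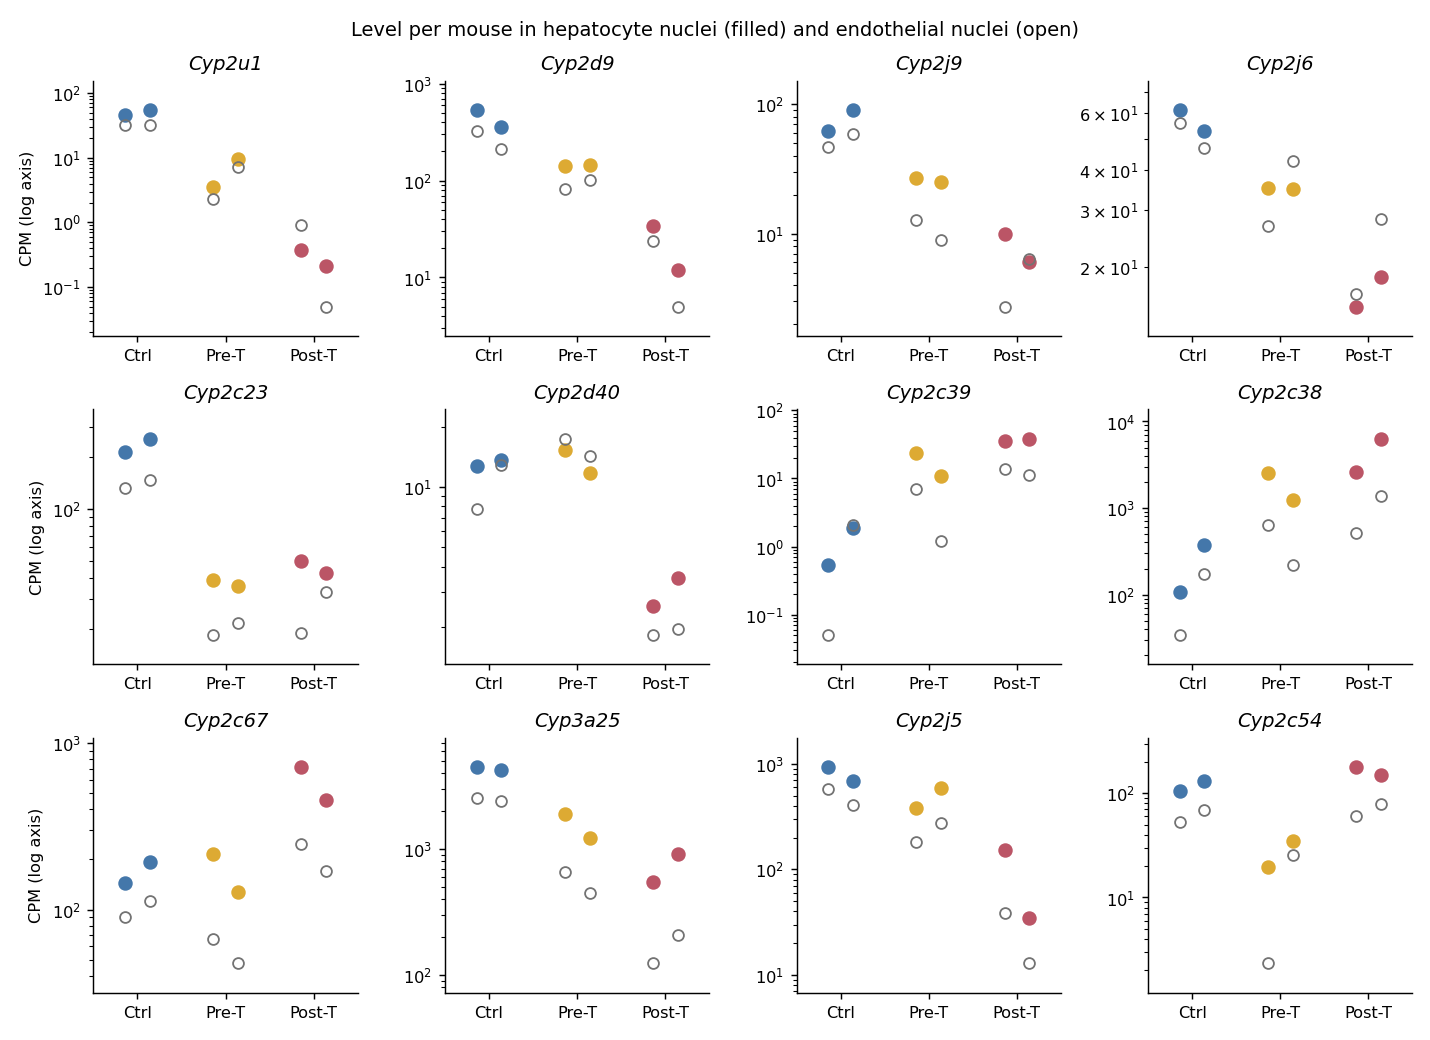
CPM of 12 members in hepatocyte nuclei (filled circles, blue Ctrl, yellow Pre-T, red Post-T) and in endothelial nuclei of the same mouse (open grey circles), 1 point per mouse, on log axes that differ between panels. A value of 0 is drawn at 0.05 CPM, which applies to Cyp2u1 in endothelial nuclei of Post-T 2 and to Cyp2c39 in those of Ctrl 1. Cyp2u1, Cyp2d9 and Cyp2j9 step down from Ctrl to Pre-T to Post-T without overlap, and Cyp2c39 and Cyp2c38 lie above Ctrl in all 4 WD mice.

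Cyp2u1, which hydroxylates long-chain fatty acids including arachidonic acid (chr3:131288441-131303227, minus strand), had 46.3 and 53.96 CPM in Ctrl 1 and Ctrl 2, 3.47 and 9.61 CPM in Pre-T 1 and Pre-T 2, and 0.376 and 0.215 CPM in Post-T 1 and Post-T 2. The 3 groups did not overlap, and Post-T rested on 7 UMIs in all against 1627 in Ctrl, a ratio of summed CPM of 0.006 with a 95% counting interval of 0.002 to 0.012. Its log2 fold change between Post-T and Ctrl was -7.36 (SE 0.65, adjusted p = 0.0233) by edgeR with Benjamini-Hochberg adjustment, and between Pre-T and Ctrl -3.25 (SE 0.49, adjusted p = 0.117). The endothelial nuclei had 32.6 and 32.1 CPM in Ctrl, 2.32 and 7.11 CPM in Pre-T and 0.911 and 0 CPM in Post-T, in the same order of groups. Its annotated gene overlaps 4930534D22Rik on the opposite strand.

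Cyp2d9, a male-predominant testosterone hydroxylase (chr15:82433437-82456845, plus strand), had 529 and 354 CPM in the Ctrl mice, 140.2 and 145 CPM in the Pre-T mice and 33.6 and 12.03 CPM in the Post-T mice. Here too the groups followed each other downward without overlap. The fold change on the log2 scale in Post-T against Ctrl was -4.31 (SE 0.50, adjusted p = 0.0272), and in Post-T against Pre-T -2.37 (SE 0.46, adjusted p = 0.0821). After shallower nuclei were left out, 3466 and 3194 hepatocyte nuclei in Ctrl, 1662 and 1378 in Pre-T and 1636 and 1830 in Post-T could be thinned to 1000 UMIs. Of these, 37.1% and 26.5% in Ctrl, 12.7% and 13.0% in Pre-T and 3.12% and 1.04% in Post-T had a Cyp2d9 UMI, against 21.5%, 12.2%, 6.45%, 9.59%, 2.16% and 0.618% of thinned endothelial nuclei (248 to 1457 per mouse) of the same 6 mice. Without thinning the hepatocyte shares were 63.6%, 46.5%, 41.9%, 43.8%, 10.3% and 4.05%. Cyp2d9 overlaps 3 annotated genes on its own strand (Gm46501, Gm49421 and Gm27622), so part of its counts may belong to them.

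The Cyp2j enzymes, which epoxidise or hydroxylate arachidonic acid, had 4 members that stepped down with the groups. Cyp2j9 (chr4:96568429-96591578, minus strand) had 62.3 and 89.8 CPM in the Ctrl mice, 27.01 and 25.3 CPM in the Pre-T mice and 9.95 and 6.01 CPM in the Post-T mice, and Cyp2j6 had 61.2 and 52.95 CPM in the Ctrl mice, 35.1 and 34.8 CPM in the Pre-T mice and 15.02 and 18.6 CPM in the Post-T mice. For both, every Post-T value lay below every Pre-T value and every Pre-T value below every Ctrl value. Both fell in Post-T against Ctrl, with -3.23 (SE 0.29, adjusted p = 0.0233) for Cyp2j9 and -1.71 (SE 0.28, adjusted p = 0.0427) for Cyp2j6 on the log2 scale. Endothelial nuclei had 55.8 and 46.6 CPM in Ctrl, 26.7 and 42.7 CPM in Pre-T and 16.4 and 28.1 CPM in Post-T of Cyp2j6, near the hepatocyte level and above it in 3 of the WD mice and in no Ctrl mouse. The part of RNA from other nuclei in its hepatocyte values was not tested. Cyp2j5, the member of the array with most UMIs, had 930.1 and 692 CPM in the Ctrl mice, 387 and 596 CPM in the Pre-T mice and 153 and 34.9 CPM in the Post-T mice, again without overlap, and did not pass the test at -3.16 (SE 0.66, adjusted p = 0.0674). Cyp2j8 had 10.2 and 9.13 CPM in the Ctrl mice, 3.24 and 1.95 CPM in the Pre-T mice and 0.751 and 1.57 CPM in the Post-T mice in the same order, and its value was -2.95 (SE 0.55, adjusted p = 0.0572). Cyp2j11 and Cyp2j13 stayed at or under 1.97 CPM in every mouse.

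Cyp2c23 (chr19:44005022-44029208, minus strand), an arachidonic acid epoxygenase also written Cyp2c44, had 214 and 254 CPM in the Ctrl mice, 38.7 and 35.9 CPM in the Pre-T mice and 49.7 and 42.4 CPM in the Post-T mice. All 4 WD mice lay far below both Ctrl mice and close to each other, with both Post-T mice slightly above both Pre-T mice. It fell in Post-T against Ctrl by edgeR, at -2.31 (SE 0.21, adjusted p = 0.0233). Pre-T against Ctrl, -2.94 (SE 0.22, adjusted p = 0.0689), was larger in size but did not pass. DESeq2 called it in Pre-T against Ctrl, as did edgeR in several alternatives, such as Leiden resolution 2 and nuclei thinned to 1000 UMIs. Cyp2d40 showed the other shape, with 12.8 and 13.6 CPM in the Ctrl mice, 15.2 and 11.8 CPM in the Pre-T mice and 2.54 and 3.51 CPM in the Post-T mice. Its Pre-T mice overlapped Ctrl, both Post-T mice lay below all others, and it fell in Post-T against Ctrl, at -2.06 (SE 0.35, adjusted p = 0.0495), while -1.80 (SE 0.35, adjusted p = 0.0825) against Pre-T did not pass. Its endothelial levels, 7.75 and 12.95 CPM in Ctrl, 17.4 and 14.2 CPM in Pre-T and 1.82 and 1.95 CPM in Post-T, were above the hepatocyte ones in both Pre-T mice and below them elsewhere.

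Cyp2c39, a retinoic acid hydroxylase that also oxidises arachidonic acid (chr19:39510862-39568529, plus strand), was the single member called higher by edgeR in Post-T against Ctrl, where DESeq2 called 6 higher (Cyp2c38, Cyp2c39, Cyp2c67, Cyp2c68, Cyp2a22 and Cyp3a57) of 47 members, beside 5.87% of all genes. It had 0.542 and 1.89 CPM in the Ctrl mice, 23.7 and 10.7 CPM in the Pre-T mice and 35.5 and 38.2 CPM in the Post-T mice. Every WD mouse was above both Ctrl mice and both Post-T mice above both Pre-T mice. The change in Post-T against Ctrl was 4.98 (SE 0.67, adjusted p = 0.0347) and in Pre-T against Ctrl 3.55 (SE 0.64, adjusted p = 0.138). Endothelial nuclei had 0 and 2.07 CPM in Ctrl, 6.96 and 1.19 CPM in Pre-T and 13.7 and 11.1 CPM in Post-T.

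Leaving out either Ctrl mouse, which leaves 1 Ctrl mouse whose spread is taken from the other groups, ended all 7 calls, with adjusted p of 0.129 to 0.266 in edgeR, and leaving out either Pre-T mouse left Cyp2u1 alone. Without Post-T 1 or Post-T 2, which leaves 1 Post-T mouse whose spread is likewise taken from the other groups, all 7 were called, among 17 of 46 and 14 of 45 members called, beside 10.2% and 6.72% of all genes. Without Post-T 1 or Post-T 2, Pre-T against Ctrl went from 0 to 7 members in each case, beside 2.18% and 2.43% of all genes, and without Post-T 1, Post-T against Pre-T went from 0 to 12, beside 8.2% of all genes. The direction of all 7 was the same in each of the 23 alternatives, but the calls were not. Cyp2u1 kept its call in 21 of the 23, Cyp2c23 and Cyp2d9 in 18, Cyp2j9 in 17 and Cyp2c39 in 16. Cyp2j6 kept it in 11 and Cyp2d40 in 8. The Cyp2d40 call was also lost with every mouse in the fit, for instance with Leiden resolution 2 (adjusted p = 0.066 in edgeR) or nuclei thinned to 1000 UMIs (adjusted p = 0.0748 in edgeR).

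Cyp2c38 (chr19:39389556-39463075, minus strand), the neighbour of Cyp2c39, had the largest difference in mean CPM of any member between Post-T and Ctrl, in values not scaled by gene length. It had 106 and 376 CPM in Ctrl 1 and Ctrl 2, 2568 and 1239.6 CPM in Pre-T 1 and Pre-T 2, and 2622 and 6287 CPM in Post-T 1 and Post-T 2. All 4 WD mice were above both Ctrl mice, and both Post-T mice above both Pre-T mice, yet the mice of each group lay far apart and neither 2.72 (SE 0.82, adjusted p = 0.249) in Pre-T nor 4.33 (SE 0.88, adjusted p = 0.066) in Post-T passed. DESeq2 called both, and in Post-T against Ctrl Cyp2c38 was called in 6 of 23 alternatives, DESeq2 and 5 fits of edgeR. Of thinned hepatocyte nuclei, 6.00% and 14.5% in Ctrl, 45.1% and 27.4% in Pre-T and 67.5% and 93.0% in Post-T had a Cyp2c38 UMI, against 1.53% and 8.39%, 18.1% and 8.53%, and 24.0% and 51.9% of endothelial nuclei. Endothelial levels were 34.1 and 171 CPM in Ctrl, 629 and 221 CPM in Pre-T and 516 and 1369 CPM in Post-T.

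The promoters of Cyp2c38, Cyp2c39 and Cyp2c67 are shown because these 3 neighbours of the chromosome 19 array had the largest fold changes in Post-T against Ctrl on the higher side among Cyp2c genes with a mean of 10 CPM or more. The windows run from 250 bases before to 50 after a start site, from RefSeq on GRCm38.p6, for Cyp2c38 at chr19:39463026-39463325 (minus strand), for 1 of the 2 starts of Cyp2c39 at chr19:39510572-39510871 (plus strand) and for Cyp2c67 at chr19:39648993-39649292 (minus strand). Capitals mark TATAAA on either strand (at position -31 in Cyp2c38, -3 in Cyp2c39 and -40 in Cyp2c67, and absent from the window of the other Cyp2c39 start) and CAAAGTCCA on either strand (letters bound by the liver factor Hnf4a, at -125 in Cyp2c67).
Cyp2c38: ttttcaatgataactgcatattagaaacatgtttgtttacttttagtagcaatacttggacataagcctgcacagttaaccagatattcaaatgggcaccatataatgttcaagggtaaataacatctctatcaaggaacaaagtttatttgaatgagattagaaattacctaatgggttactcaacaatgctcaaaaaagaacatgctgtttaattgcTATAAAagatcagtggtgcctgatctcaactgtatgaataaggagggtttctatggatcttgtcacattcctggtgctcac
Cyp2c39: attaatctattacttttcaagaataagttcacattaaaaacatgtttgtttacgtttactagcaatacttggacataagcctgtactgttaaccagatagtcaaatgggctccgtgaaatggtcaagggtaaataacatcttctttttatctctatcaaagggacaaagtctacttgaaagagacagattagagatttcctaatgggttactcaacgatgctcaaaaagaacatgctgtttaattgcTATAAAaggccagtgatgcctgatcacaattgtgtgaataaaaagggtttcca
Cyp2c67: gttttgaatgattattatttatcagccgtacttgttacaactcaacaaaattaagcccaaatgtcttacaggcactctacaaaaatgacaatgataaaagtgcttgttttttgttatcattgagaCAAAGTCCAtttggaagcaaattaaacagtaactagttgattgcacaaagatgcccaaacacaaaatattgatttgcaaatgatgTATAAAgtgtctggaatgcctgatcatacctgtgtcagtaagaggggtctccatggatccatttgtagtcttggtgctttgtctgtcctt
Among 46 windows found for 43 of the 49 members, 23 hold TATAAA, beside 13.6% of 32851 promoters of the same length, and 7 hold CAAAGTCCA, beside 0.475%. The letters TTCNNNGAA, bound by Stat5, are in 1 window (8.30% of all promoters), and GCGTG, the core bound by Ahr, in 9 (32.4%), with both strands searched each time. Windows of neighbouring genes share sequence, so they are not independent, and a match of letters is not a bound site.

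Other Cyp2c genes of the array differed in direction. Cyp2c67 had 144 and 192 CPM in the Ctrl mice, 217 and 128 CPM in the Pre-T mice and 715 and 453 CPM in the Post-T mice, so the 2 WD groups parted, with Pre-T overlapping Ctrl and both Post-T mice above all others. Its log2 value was 1.82 (SE 0.35, adjusted p = 0.0598) against Ctrl and 2.07 (SE 0.35, adjusted p = 0.0698) against Pre-T. Cyp2c68 had 73.4 and 114 CPM in the Ctrl mice, 249 and 143 CPM in the Pre-T mice and 236 and 356 CPM in the Post-T mice, above Ctrl in all 4 WD mice. Cyp2c54, which lies in the same array, had 104 and 132 CPM in the Ctrl mice, 19.6 and 35.04 CPM in the Pre-T mice and 178 and 151 CPM in the Post-T mice. Both Pre-T mice were below, and both Post-T mice above, both Ctrl mice. The log2 values by edgeR were -2.41 (SE 0.33, adjusted p = 0.117) and 0.51 (SE 0.31, adjusted p = 0.359). For Post-T against Pre-T the value was 2.92 (SE 0.34, adjusted p = 0.0545). Within the pericentral-leaning nuclei described below, both Post-T mice, at 195 and 151 CPM, lay below both Ctrl mice, at 248 and 313 CPM. Cyp2c70, which makes the muricholic acids of mouse bile, had 262 and 185 CPM in the Ctrl mice, 529.9 and 860.0 CPM in the Pre-T mice and 299 and 367 CPM in the Post-T mice, higher than Ctrl in each WD mouse and highest in Pre-T, at 1.33 (SE 0.39, adjusted p = 0.238).

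Cyp2c29, an arachidonic acid epoxygenase, had 1216 and 749 CPM in the Ctrl mice, 961 and 367 CPM in the Pre-T mice and 86.95 and 705 CPM in the Post-T mice. Both Post-T mice were below Ctrl but far apart, and Pre-T overlapped Ctrl. The value in Post-T against Ctrl was -1.18 (SE 1.01, adjusted p = 0.508) by edgeR. Within the pericentral-leaning nuclei described below it had 3114 and 2039 CPM in Ctrl, 1706 and 919 CPM in Pre-T and 90.7 and 710 CPM in Post-T. There all 4 WD mice lay below both Ctrl mice. Within periportal-leaning nuclei edgeR called it in Pre-T against Ctrl. It had 783 and 413 CPM there in Ctrl, 87.1 and 121 CPM in Pre-T and 51.3 CPM in Post-T 1, from 30 UMIs. Cyp2c37, which also oxidises arachidonic acid, had 65.8 and 86.1 CPM in the Ctrl mice, 83.6 and 74.7 CPM in the Pre-T mice and 30.99 and 194 CPM in the Post-T mice, and its groups overlapped. Within pericentral-leaning nuclei it had 262 and 365 CPM in Ctrl, 146 and 203 CPM in Pre-T and 34.1 and 195 CPM in Post-T. In those nuclei every WD mouse lay below both Ctrl mice. Cyp2c50 had 208 and 143 CPM in the Ctrl mice, 115 and 119 CPM in the Pre-T mice and 89.02 and 117 CPM in the Post-T mice, lower than both Ctrl mice in all 4 WD mice, at -0.72 (SE 0.33, adjusted p = 0.244) in Post-T. Cyp2c55, a target of CAR and PXR, ran from 4.26 to 55.4 CPM with the mice of each group far apart. Cyp2c40 and Cyp2c69 stayed at or under 5.82 CPM.

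The Cyp3a enzymes are the broadest drug oxidisers. Cyp3a25 (chr5:145977194-146009618, minus strand) had 4455 and 4209 CPM in the Ctrl mice, 1903 and 1229.7 CPM in the Pre-T mice and 549 and 919 CPM in the Post-T mice, and each group lay wholly below the one before it. The fold change on the log2 scale was -1.76 (SE 0.47, adjusted p = 0.219) in Pre-T and -2.49 (SE 0.48, adjusted p = 0.0604) in Post-T, both short of the threshold in edgeR and both called by DESeq2. Of 23 alternatives, DESeq2 included, 8 called it in Post-T against Ctrl and 2 in Pre-T against Ctrl. Its neighbour Cyp3a59, whose promoter window is 96.3% identical to that of Cyp3a25, had 515 and 307 CPM in the Ctrl mice, 99.2 and 44.7 CPM in the Pre-T mice and 29.8 and 57.4 CPM in the Post-T mice, with all WD mice below Ctrl and Post-T overlapping Pre-T. Cyp3a11, the main target of PXR in mouse liver (chr5:145854426-145879964, minus strand), had 1803 and 464 CPM in the Ctrl mice, 1265 and 704 CPM in the Pre-T mice and 64.8 and 537 CPM in the Post-T mice. Both WD groups overlapped Ctrl, both Post-T mice lay below both Pre-T mice, and the mice of each group lay far apart. In the pericentral-leaning nuclei described below Cyp3a11 had 2855 and 796 CPM in Ctrl, 1667 and 1251 in Pre-T and 66.3 and 537 in Post-T. There both Post-T mice lay below both Ctrl mice, while Pre-T overlapped Ctrl. Cyp3a13 had 247 and 166 CPM in the Ctrl mice, 147 and 185 CPM in the Pre-T mice and 182 and 86.5 CPM in the Post-T mice and its groups overlapped. Cyp3a57 was at 2.55 to 4.11 CPM in both Pre-T mice and Post-T 1 and at or under 0.120 CPM in the other 3 mice.

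The windows of Cyp3a11 (chr5:145879805-145880104, minus strand), Cyp2d9 (chr15:82452127-82452426, plus strand) and Cyp2j9 (chr4:96591436-96591735, minus strand) are shown beside these as a member that was not called and 2 that fell. Capitals mark TATAAA or its reverse complement and CAAAGTCCA, at -234 and -109 in Cyp3a11 and at -28 in Cyp2d9, and neither is in the Cyp2j9 window, which holds GCGTG. The RefSeq start of Cyp2d9 lies inside its GENCODE interval, so starts can differ between annotations.
Cyp3a11: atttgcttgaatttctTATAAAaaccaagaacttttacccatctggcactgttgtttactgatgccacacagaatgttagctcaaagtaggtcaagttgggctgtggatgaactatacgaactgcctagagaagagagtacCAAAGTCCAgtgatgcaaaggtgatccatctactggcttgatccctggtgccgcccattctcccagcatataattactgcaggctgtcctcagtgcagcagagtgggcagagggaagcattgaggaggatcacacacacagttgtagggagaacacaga
Cyp2d9: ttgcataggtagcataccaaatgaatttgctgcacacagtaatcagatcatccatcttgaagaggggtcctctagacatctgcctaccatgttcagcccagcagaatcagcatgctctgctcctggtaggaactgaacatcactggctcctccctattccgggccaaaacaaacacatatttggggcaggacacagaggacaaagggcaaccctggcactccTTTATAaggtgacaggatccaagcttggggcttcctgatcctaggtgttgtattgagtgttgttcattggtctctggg
Cyp2j9: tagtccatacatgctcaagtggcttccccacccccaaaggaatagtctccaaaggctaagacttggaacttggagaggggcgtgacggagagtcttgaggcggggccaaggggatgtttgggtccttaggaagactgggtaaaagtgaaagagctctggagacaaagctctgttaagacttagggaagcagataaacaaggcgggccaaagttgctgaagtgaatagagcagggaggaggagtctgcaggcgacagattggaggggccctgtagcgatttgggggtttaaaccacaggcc
No window was found for Cyp2u1, Cyp2c23 or Cyp2c54.

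The more abundant of the other Cyp2d genes on chromosome 15 overlapped between Post-T and Ctrl. Cyp2d22 had 181 and 170.1 CPM in the Ctrl mice, 188 and 188 CPM in the Pre-T mice and 129.6 and 180.1 CPM in the Post-T mice. Cyp2d26 had 244 and 432 CPM in the Ctrl mice, 304 and 246 CPM in the Pre-T mice and 194 and 689 CPM in the Post-T mice. Cyp2d10 had 261 and 214 CPM in the Ctrl mice, 102 and 139.6 CPM in the Pre-T mice and 112 and 221 CPM in the Post-T mice, with both Pre-T mice below Ctrl. None of the 3 was called by edgeR over all hepatocyte nuclei of the 6 mice. Cyp2d10 was among the members called in Pre-T against Ctrl within periportal-leaning nuclei, and Cyp2d26 in Post-T against Pre-T without Post-T 1. Cyp2d11 and Cyp2d12, like Cyp2c65, Cyp2c66, Cyp2g1, Cyp2t4, Cyp2ab1 and Cyp2s1, stayed at or under 1.88 CPM in every mouse.

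Several Cyp2a and Cyp2b genes of chromosome 7 stood high in single mice or in 1 group. Cyp2a5, which oxidises coumarin and nicotine, had 52.4 and 219.7 CPM in the Ctrl mice, 73.2 and 30.1 CPM in the Pre-T mice and 92.7 and 1504 CPM in the Post-T mice, so that Post-T 2 stood far above the other 5 mice. The endothelial nuclei of Post-T 2 had 1845 CPM of Cyp2a5, more than its hepatocyte nuclei. Cyp2a22 had 2.23 and 6.55 CPM in the Ctrl mice, 49.99 and 7.67 CPM in the Pre-T mice and 48.2 and 133 CPM in the Post-T mice, above Ctrl in all WD mice, at 4.49 (SE 1.11, adjusted p = 0.0943) in Post-T. In the pericentral-leaning nuclei described below it had 13.4 and 31.0 CPM in Ctrl, 86.9 and 17.3 in Pre-T and 51.8 and 133 in Post-T. There Pre-T 2 lay between the Ctrl mice and the rest of the WD mice above them. Cyp2a12, a testosterone hydroxylase, had 165 and 181 CPM in the Ctrl mice, 63.3 and 127 CPM in the Pre-T mice and 48.7 and 3.65 CPM in the Post-T mice, below Ctrl in all WD mice and lowest in Post-T 2.

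Cyp2b9 and Cyp2b13 are female-predominant in mouse liver, and all mice here were male. Cyp2b9 had 0.0602 and 4.34 CPM in the Ctrl mice, 30.01 and 51.96 CPM in the Pre-T mice and 6.67 and 0.429 CPM in the Post-T mice, with both Pre-T mice above all others. Cyp2b13 had 165 UMIs over the 2 Pre-T mice (10.5 and 3.89 CPM) and 3 UMIs over the mice of each other group, a ratio of Pre-T to Ctrl of 85.6 with a 95% counting interval of 28.8 to 419. Their log2 values in Pre-T against Ctrl were 3.96 (SE 1.54, adjusted p = 0.311) and 5.87 (SE 0.82, adjusted p = 0.117). The promoter windows of the pair are 99.3% identical. Cyp2b10, the classic CAR target, stayed at or under 1.44 CPM in every mouse.

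**Figure D2:**
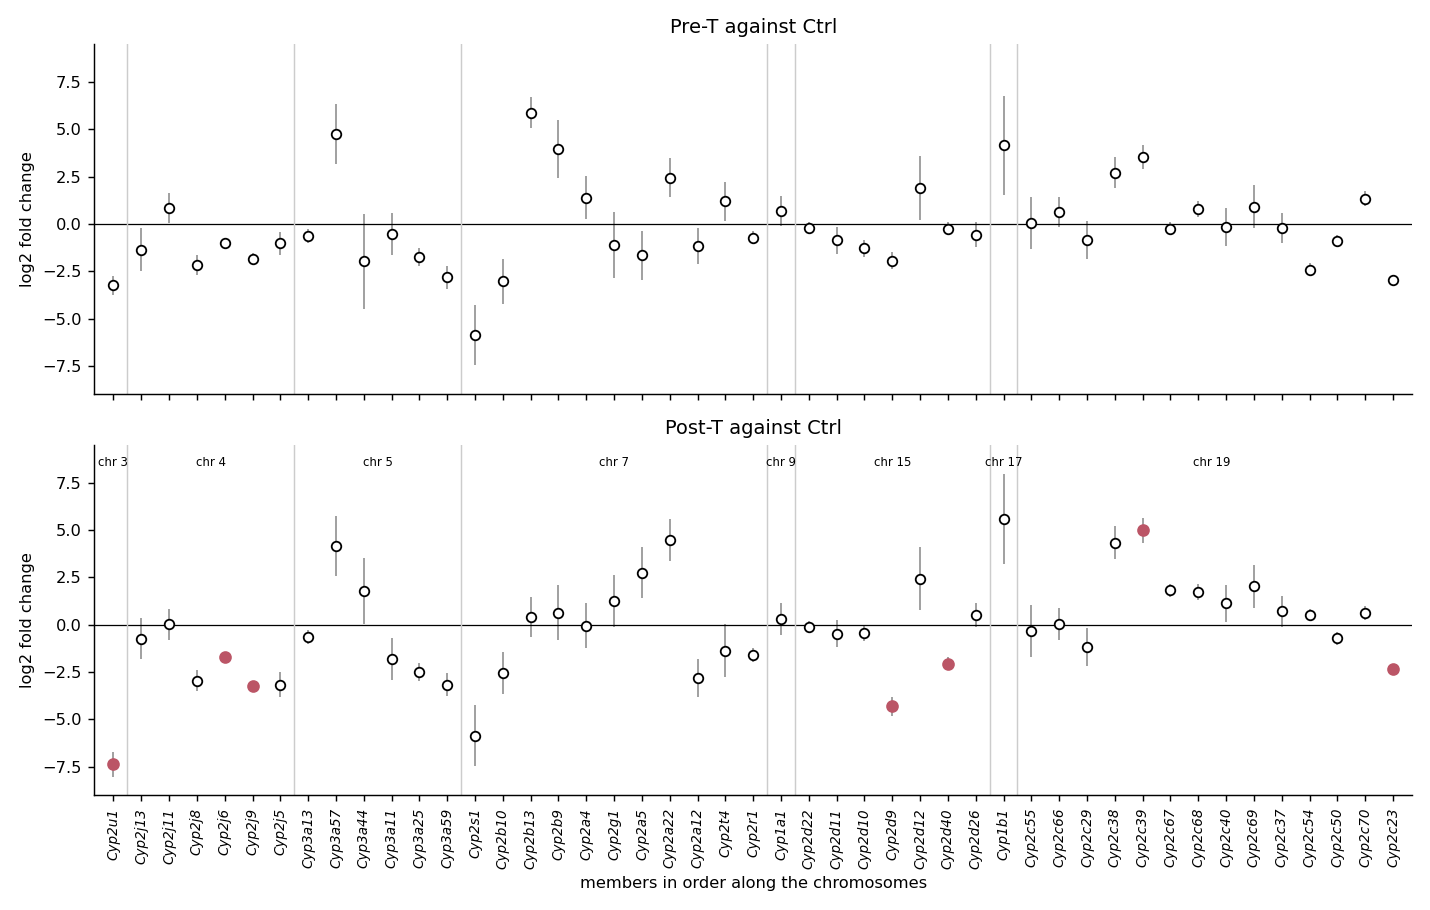
Log2 fold change (edgeR, error bars 1 SE) of the 47 members tested in Pre-T against Ctrl (top) and Post-T against Ctrl (bottom), ordered along the chromosomes, with vertical lines between chromosomes. Filled red points have an adjusted p under 0.05, and open points do not. The top panel holds no filled point, the bottom panel 7, and neighbours of the chromosome 19 array stand on both sides of 0.

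Zonation was measured within mice. Each hepatocyte nucleus with at least 3 UMIs from 11 pericentral and 12 periportal genes, none of them a P450, was called pericentral-leaning when 66.7% or more of those UMIs were pericentral and periportal-leaning at 33.3% or less. Pericentral-leaning nuclei made up 6.88% and 8.86% of hepatocyte nuclei in Ctrl, 49.9% and 22.7% in Pre-T and 69.3% and 98.6% in Post-T. The classes are ranges of a score, and between 112 and 791 nuclei per mouse lay within 10 percentage points of a cut. Post-T 2 had 1 periportal-leaning nucleus and could not be paired, so the zones were compared over 10 sums from 5 mice with the mouse as a block.

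Of 43 members tested, 20 differed between the zones by edgeR, 14 higher and 6 lower on the pericentral side, beside 8.88% of the 18293 genes tested (4.37% higher and 4.51% lower). Cyp2c38 differed most, with 604, 1638, 4422, 3518 and 3083 CPM in the pericentral-leaning nuclei of Ctrl 1, Ctrl 2, Pre-T 1, Pre-T 2 and Post-T 1, against 19.2, 117, 187, 180.5 and 459 CPM in their periportal-leaning nuclei. It was higher on the pericentral side in 5 of 5 mice, by 4.07 (SE 0.25, adjusted p = 5.29e-09) on the log2 scale, and Post-T 2 had 6330.4 CPM in its pericentral-leaning nuclei. The pericentral side was also higher for Cyp2b13 (3.27, SE 0.56, adjusted p = 0.000731), Cyp2c37 (3.19, SE 0.17, adjusted p = 1.49e-09), Cyp2c39 (3.01, SE 0.31, adjusted p = 3.03e-06), Cyp2a5 (2.95, SE 0.31, adjusted p = 4.12e-06) and Cyp2a22 (2.67, SE 0.38, adjusted p = 0.000111). Cyp2b13 rests on the Pre-T mice, with 112 and 21 pericentral against 8 and 1 periportal UMIs, and DESeq2 did not call it (adjusted p = 0.0604). Except for Cyp2b13, higher in 3 of 5 mice, these were higher in 5 of 5. Below these came Cyp2c29 at 2.53, Cyp2c55 at 2.18, Cyp2c67 at 1.94, Cyp2c50 at 1.57, Cyp2c54 at 1.52, Cyp2d40 at 1.47, Cyp3a11 at 1.27 and Cyp2c68 at 1.16.

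**Figure D3:**
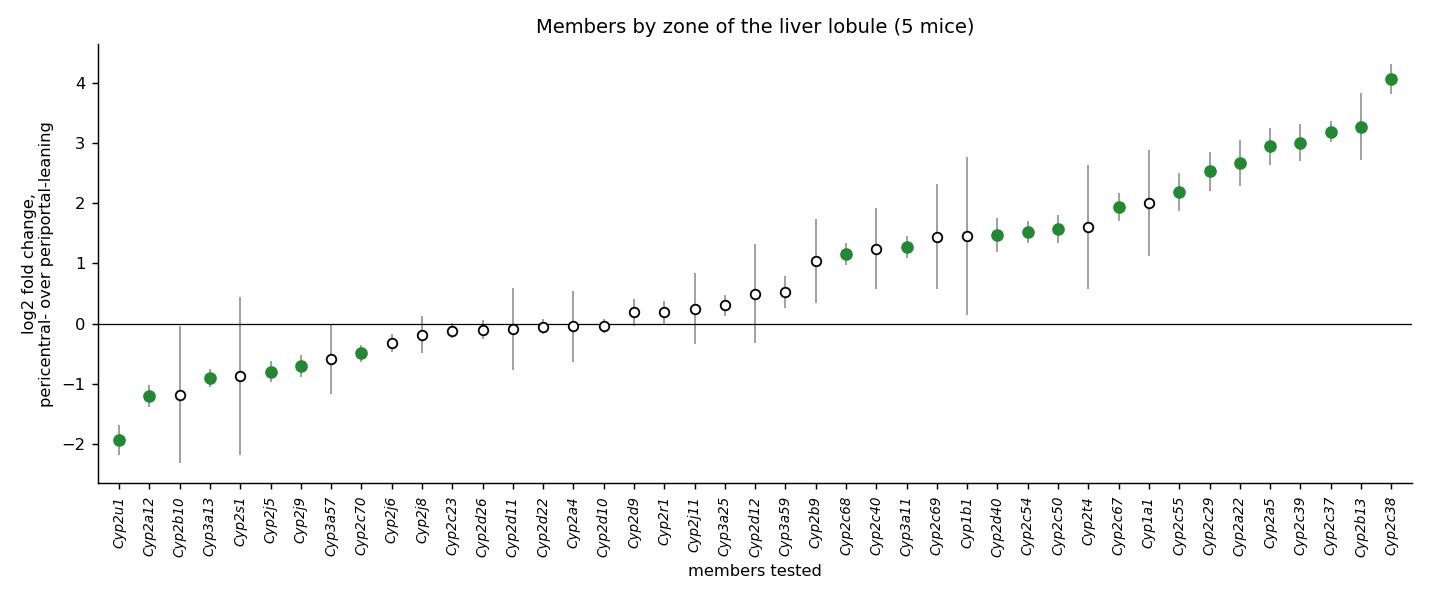
Log2 fold change of pericentral- over periportal-leaning hepatocyte nuclei (edgeR with the mouse as a block, 5 mice, error bars 1 SE) for the 43 members tested, in order of size. Filled green points have an adjusted p under 0.05. The 6 filled points on the left are below 0 and the 14 on the right above, ending with Cyp2c38 at 4.07.

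On the periportal side, Cyp2u1 was higher, with 14.8, 18.3, 0.915, 5.44 and 0.246 CPM in the pericentral-leaning nuclei of Ctrl 1, Ctrl 2, Pre-T 1, Pre-T 2 and Post-T 1, against 53.1, 63.2, 7.43, 9.72 and 3.42 CPM in their periportal-leaning nuclei and a log2 value of -1.94 (SE 0.24, adjusted p = 3.36e-05). The 5 others were Cyp2a12 (-1.20, SE 0.18, adjusted p = 0.000214), Cyp3a13 (-0.91, SE 0.16, adjusted p = 0.000731), Cyp2j5 (-0.80, SE 0.17, adjusted p = 0.00468), Cyp2j9 (-0.71, SE 0.18, adjusted p = 0.0168) and Cyp2c70 (-0.50, SE 0.15, adjusted p = 0.0401), in which the periportal side was higher in 5 of 5 mice except for Cyp2c70 in Ctrl 2. The Cyp2c70 call held in 5 of 12 alternatives and was lost without Ctrl 1, Pre-T 1 or Pre-T 2 (adjusted p of 0.17 to 0.205 in edgeR), while that of Cyp2j9 held in 9 and that of Cyp2j5 in 10. Cyp2c23, Cyp2d9 and Cyp3a25 did not pass, at -0.12 (SE 0.13, adjusted p = 0.735), 0.19 (SE 0.23, adjusted p = 0.777) and 0.30 (SE 0.18, adjusted p = 0.42). Every Cyp2c gene with a call was higher on the pericentral side except Cyp2c70.

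The share of nuclei in each zone class differed between the groups, and the classes are cut on genes that themselves differ between the groups, so a change of those genes and a change of zone makeup cannot be told apart. The diet comparison was also read within these classes. The summed pericentral genes ran from 1187 to 1639 CPM in Ctrl, 1844 to 4872 CPM in Pre-T and 5799 to 13736 CPM in Post-T, and the summed periportal genes from 5973 to 7600, 1679 to 2642 and 1162 to 1510 CPM. Within pericentral-leaning nuclei alone, Cyp2c38 had 604, 1638, 4422, 3518, 3083 and 6330.4 CPM in Ctrl 1 to Post-T 2. The Ctrl mice were still the lowest, and the log2 difference of Post-T from Ctrl was 2.25 (adjusted p = 0.146) against 4.33 over all hepatocyte nuclei. In the same nuclei 5 of 42 members were called in Post-T against Ctrl, beside 0.761% of all genes, and all were among the 7, namely Cyp2u1 at -5.91, Cyp2d9 at -5.07, Cyp2j9 at -3.13, Cyp2d40 at -2.64 and Cyp2c23 at -2.12. Cyp2c39 was at 3.12 (adjusted p = 0.0577) and Cyp2j6 at -1.60 (adjusted p = 0.0909).

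Within periportal-leaning nuclei, where Post-T is represented by Post-T 1 alone and its spread is taken from the other mice, 7 of 40 members were called in Post-T against Ctrl, beside 1.55% of all genes, of which Cyp2u1 (-4.29), Cyp2c23 (-2.47) and Cyp2c39 were among the 7 of all hepatocyte nuclei. The Cyp2u1 value of Post-T 1 rests there on 2 UMIs. Pre-T against Ctrl gave 13 calls there, Cyp2c23, Cyp2u1, Cyp2d9, Cyp2j9, Cyp3a25 and Cyp3a59 among them, against 0 over all hepatocyte nuclei, beside 5.18% of all genes (881 genes). The within-zone fits were chosen after the zone shares were seen.

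**Figure D4:**
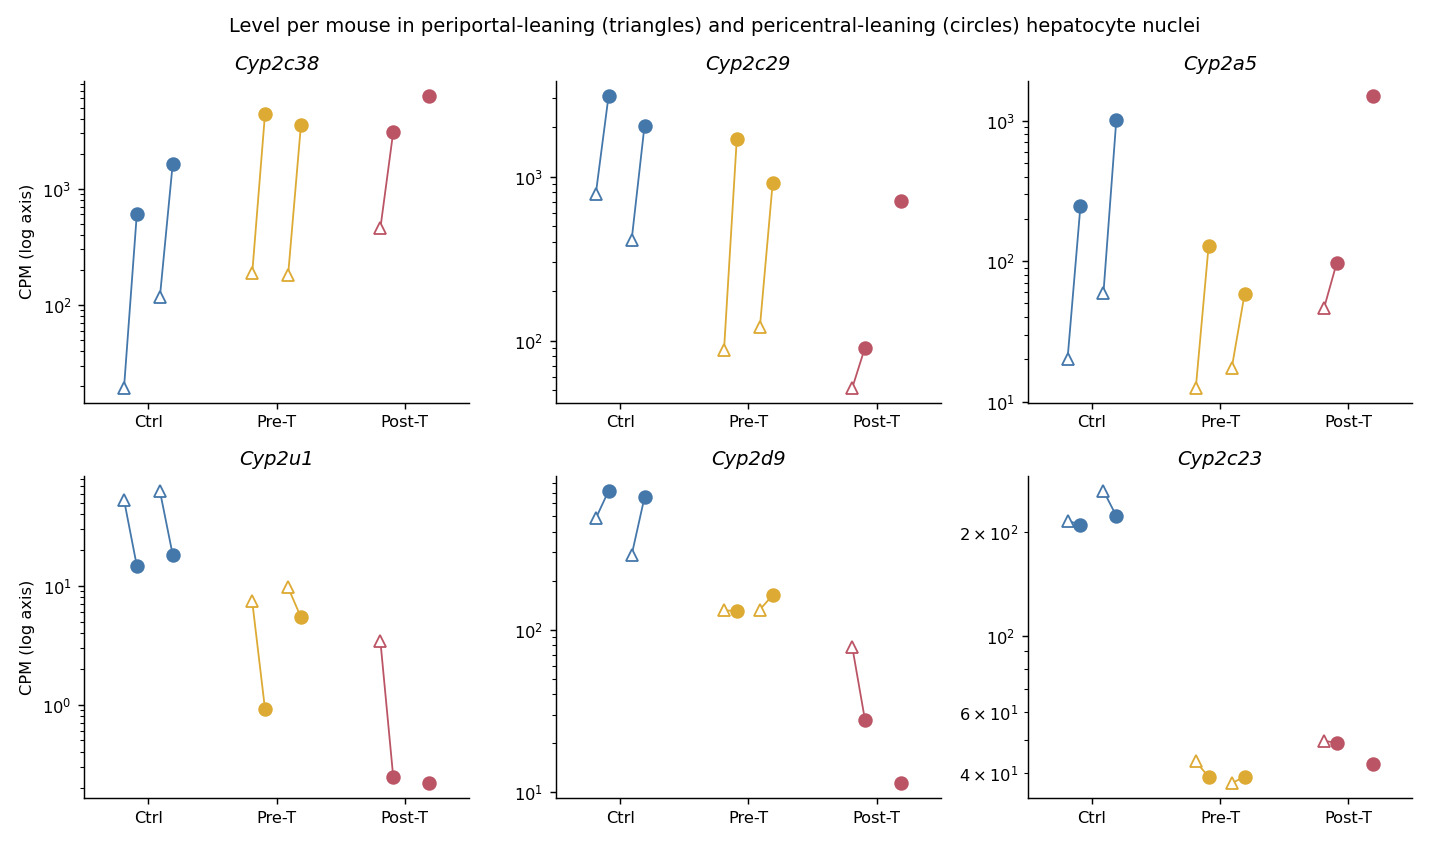
CPM of 6 members per mouse in periportal-leaning (open triangles) and pericentral-leaning (filled circles) hepatocyte nuclei, joined by a line within a mouse, on log axes, with groups coloured as in the plot by mouse. Post-T 2 has a circle alone, since it held 1 periportal-leaning nucleus. Cyp2c38 and Cyp2c29 are higher at the circle in each of the 5 paired mice and Cyp2u1 at the triangle, while for Cyp2c23 circle and triangle nearly coincide and both WD groups lie below Ctrl.

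Genes that act with the enzymes were read from lists, and calls on lists are by edgeR unless stated. Among 6 xenobiotic receptor genes none was called in any diet comparison. Nr1i3 had 266 and 622 CPM in Ctrl, 376 and 423 in Pre-T and 453 and 559 in Post-T, and Nr1i2 had 163 and 198, 256 and 289, and 242 and 394 CPM. Ahr had 176 and 221, 385 and 270, and 289 and 427 CPM, so Nr1i2 and Ahr were above Ctrl in all 4 WD mice. Arnt, the partner of Ahr, ran from 147 to 249 CPM over the 6 mice, and Rxra, the partner of CAR and PXR, from 87.6 to 361 CPM. Ahrr was at or under 0.376 CPM.

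Of 4 genes that deliver electrons to P450s none was called. Por had 187 and 437 CPM in Ctrl, 318 and 275 in Pre-T and 694 and 2294 in Post-T, at 2.39 (SE 0.72, adjusted p = 0.129) in Post-T against Ctrl by edgeR. None of 11 genes of heme synthesis and breakdown was called either, and Alas1, the first enzyme of heme synthesis, ran from 83.3 CPM in Ctrl 1 to 1056 CPM in Post-T 2. None of 13 liver transcription factors and none of 6 genes of growth hormone and sex-dependent control passed. The summed level of these 6 was 7264 to 7359 CPM in Ctrl, 5675 to 6279 CPM in Pre-T and 3011 to 3232 CPM in Post-T, most of it from the growth hormone receptor Ghr (2214 and 2847 CPM in Post-T), while their median log2 difference in Post-T against Ctrl was 0.43. Among the zone genes, 6 of 12 periportal genes fell in Post-T against Ctrl (Sds, Hal, Hsd17b13, Sdsl, Etnppl and Aldh1b1), with a median of -4.17 beside -0.02 for all genes, and 1 of 11 pericentral genes rose (Rhbg, at 5.77), with a median of 2.01.

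Lists of members read as follows by edgeR in Post-T against Ctrl, beside the median of -0.02 over all genes. Of 9 tested arachidonate epoxygenases, edgeR called 1 higher (Cyp2c39) and 2 lower (Cyp2j6 and Cyp2j9), with a median of -0.72. Beside this, 0.783% of all genes were called higher and 1.32% lower. DESeq2 also called Cyp2c38 higher and Cyp2j5 lower. Cyp2c23 stood outside this list because the list carries its older symbol. The 6 targets of CAR and PXR (Cyp2b10, Cyp2c29, Cyp2c55, Cyp3a11, Cyp3a13 and Cyp3a25) had 0 calls by edgeR and a median of -1.49. DESeq2 called Cyp3a25 alone of these. The 6 tested female-biased members had 0 calls by edgeR and a median of 0.89, and in Pre-T against Ctrl 0 calls and a median of 1.15. DESeq2 called Cyp2b13 in Pre-T against Ctrl, as did edgeR with nuclei of 5000 or more genes kept. Not all of the 9 listed female-biased genes were members. Together they summed to 4.63 to 6.74 CPM in Ctrl, 42.96 to 64.9 CPM in Pre-T and 5.08 to 17.0 CPM in Post-T. Both Pre-T mice stood above the other 4, with most of their sum from Cyp2b9 and Cyp2b13. Of the others tested, Cyp2c40 and Cyp3a44 were at -0.175 and -1.97 on the log2 scale in Pre-T against Ctrl by edgeR. Cyp2a4 and Cyp2c69 were at 1.38 and 0.92, and the Pre-T and Ctrl mice overlapped for all of these. Among 3 enzymes of endogenous substrates, Cyp2u1 fell and Cyp2c70 was not called. Cyp2r1, a vitamin D hydroxylase, had 18.2 and 16.1 CPM in the Ctrl mice, 12.2 and 13.4 CPM in the Pre-T mice and 8.08 and 3.51 CPM in the Post-T mice. It was not called by edgeR but was by DESeq2 (adjusted p = 0.00856). Outside the P450 families 1 to 3, 1 of 7 male-biased liver genes fell (Hsd3b5, with 102 and 62.7 CPM in Ctrl, 0.0790 and 0.973 CPM in Pre-T and 0.845 and 0 CPM in Post-T), with a median of -3.31 and a summed level of 3595 to 4745 CPM in Ctrl, 1511 to 2746 CPM in Pre-T and 203 to 695 CPM in Post-T. The 2 Ahr targets, Cyp1a1 and Cyp1b1, were at or under 0.948 CPM in every mouse, and neither was called.

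The members were then read across the classes of nuclei, as mean CPM over mice with at least 50000 UMIs in the class, which is a description. For 28 of the 49 members the hepatocyte mean was the highest, for 6 that of cholangiocytes, for 6 that of B cells, for 4 that of mesothelial nuclei, for 3 that of fibroblasts or stellate nuclei and for 2 that of T cells. Most of the 21 led by another class had few UMIs there. Cyp2s1, an enzyme of epithelia outside the liver, was the clearest, with 173, 245 and 209.9 CPM in the mesothelial nuclei of Ctrl 1, Ctrl 2 and Pre-T 1 (218 UMIs in all), 27.4 CPM in cholangiocytes and 0.173 CPM in hepatocytes, the other 3 mice having at most 4 mesothelial nuclei. Cyp1b1, an Ahr target of mesenchymal cells, had 4.67 CPM in fibroblasts or stellate nuclei (35 UMIs) and 0.216 CPM in hepatocytes. Its values there were 2.12, 0.933, 4.90, 5.36, 14.7 and 0 CPM in Ctrl 1 to Post-T 2, so Post-T 1, with 9 UMIs, carries much of the mean. Cyp2j6 had 53.3 CPM in cholangiocytes, a mean over the 5 mice other than Post-T 2 with 7 to 32 UMIs each, and 36.3 CPM in hepatocytes over 6 mice. In Ctrl 1 the cholangiocyte value, 34.9 CPM, was below the hepatocyte one. Cyp2r1 had 23.4 CPM in the mesothelial nuclei of 3 mice, from 13, 5 and 3 UMIs, and 11.9 CPM in hepatocytes over 6 mice. These means are over different mice and were not compared.

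Other members led in another class through 1 mouse. Cyp2a5 averaged 565 CPM in B cells, where Post-T 2 had 2655 CPM and the other mice 19.7 to 67.1 CPM. All 19 cholangiocyte UMIs of Cyp2c65 came from Ctrl 1, 22 of 23 of Cyp2a4 from Ctrl 2 and 7 of 8 of Cyp3a44 from Pre-T 2. The remaining members led by another class were Cyp2d40, Cyp2g1, Cyp2t4, Cyp2d12, Cyp2j11, Cyp2j13, Cyp2ab1, Cyp2b10, Cyp2c40, Cyp2c66, Cyp2c69, Cyp2d11 and Cyp3a57, each from at most 22 UMIs there.

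**Figure D5:**
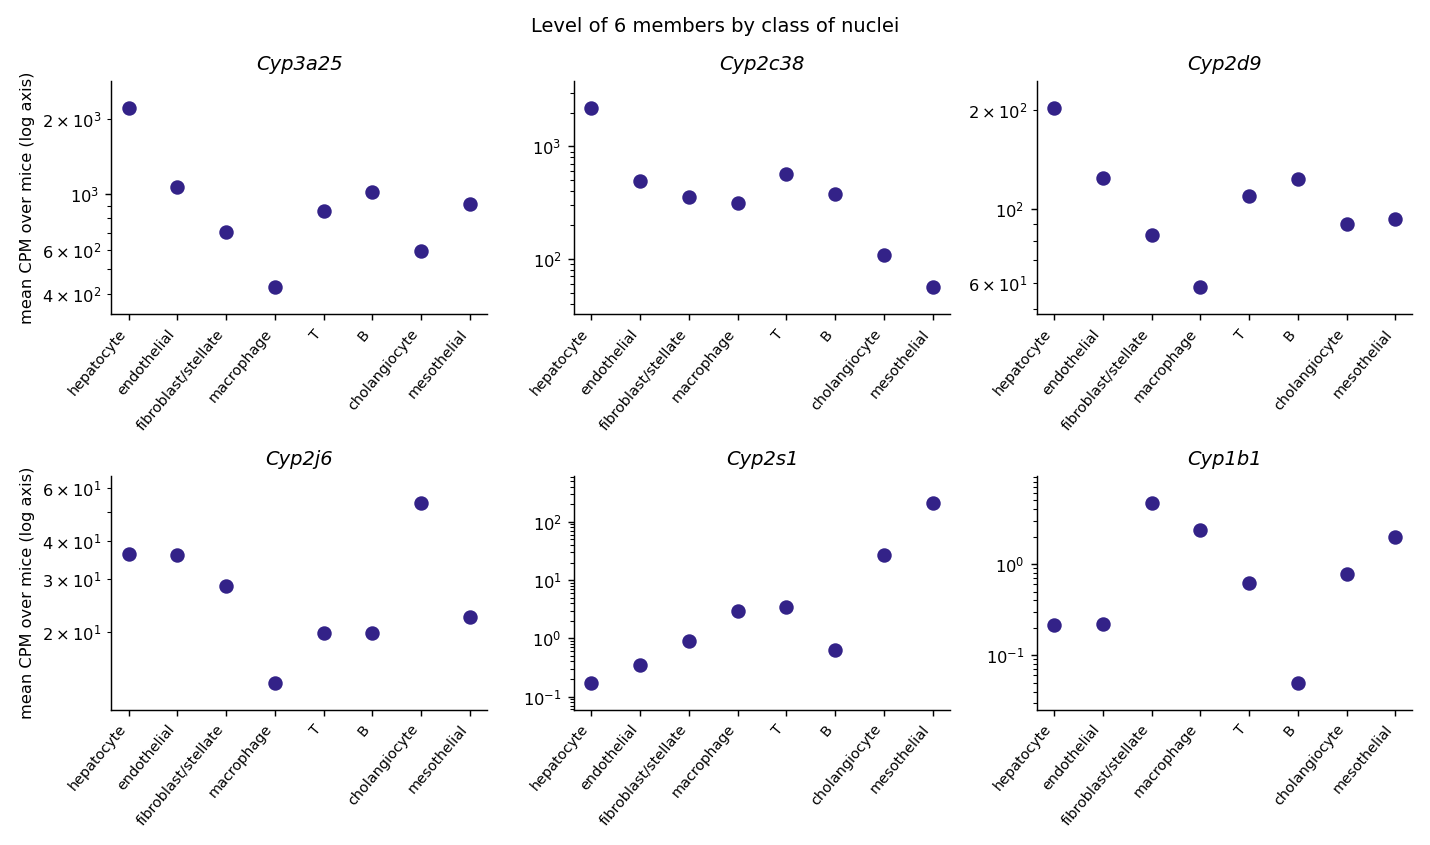
Mean CPM over mice of 6 members in 8 classes of nuclei, on log axes that differ between panels. A value of 0 is drawn at 0.05 CPM, which applies to Cyp1b1 in B cells. Cyp3a25, Cyp2c38 and Cyp2d9 are highest in hepatocytes with lower levels in every other class, Cyp2s1 stands at 209 CPM in mesothelial nuclei and Cyp1b1 at 4.67 CPM in fibroblasts or stellate nuclei.

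A cluster of 402 nuclei of Pre-T 1 and 647 of Post-T 1, with median depths of 7209 and 8228 UMIs, carried too few hepatocyte markers to be named and stayed out of the sums. Its Glul was at 2949.5 and 2025 CPM and its Cps1 at 54.8 and 59.0 CPM, in Pre-T 1 and Post-T 1. Cyp2c29 was higher there than in the hepatocyte nuclei of the same mouse, at 2425 against 961 CPM and at 388 against 87.0 CPM. The opposite held for Cyp3a25, with 43.2 against 1903 CPM and 56.0 against 549 CPM, for Cyp2c38, with 151 against 2568 CPM and 1280.3 against 2622 CPM, and for Cyp2d9, with 21.3 against 140 CPM and 14.5 against 33.6 CPM. These are values of 1 cluster in 2 mice with no test.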

How the data were processed

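Nuclei of snap-frozen livers from 6 mice were profiled by droplet sequencing of 3′ transcript ends. The authors deposited raw UMI counts per gene and barcode, made with Cell Ranger 6.1.1 on mm10 per the submitters' processing notes. Whether intronic reads were counted is not given in the sources used here. Barcodes with more than 200 and fewer than 5000 genes and under 5% mitochondrial UMIs were kept (5323 to 7846 of 5638 to 8469 per library). They were clustered in scanpy 1.11.5 (2000 variable genes without Cyp1, Cyp2 or Cyp3 genes, 30 components, 15 neighbours, Leiden resolution 1) and clusters were named from marker lists. No doublet caller was run, and clusters with markers of 2 classes stayed unnamed and out of the sums.

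Hepatocyte counts were summed per mouse and tested with edgeR 4.0.16 (quasi-likelihood test, TMM factors, at least 10 counts over the 6 mice, 1 model over the 6 mice, leaving 3 residual degrees of freedom, Benjamini-Hochberg adjusted p under 0.05), so the spread is that between 2 mice per group. Standard errors are the log2 fold change divided by the square root of F. Zones were tested with the mouse as a block on 10 sums and not the 12 planned, since a mouse needed 20 nuclei in both zones. Intervals cover counting error only and are exact at 95%. The scripts were tested on simulated data. The named genes are members called in a diet comparison, up to 8 per comparison with the largest change among those with a mean of 10 CPM or more and groups that do not overlap, up to 6 per direction of zone, the members of the lists, members led by another class, receptors, Por and genes of the reported lists called in Post-T against Ctrl. The periportal list also had 1 gene called lower in Post-T against Pre-T by edgeR. Other members are named to account for all 49, and those and cluster 15 were chosen after their values were seen. A list of genes outside families 1 to 3 is not reported here. The members and lists were chosen with earlier results of these data known. Promoters came from RefSeq (GRCm38.p6) and gene positions from GENCODE M21. Alternatives were DESeq2 1.42.0, other scalings, filters, clusterings, hepatocyte definitions, depths, zones and leaving out each mouse.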

Additional observations from a re-analysis of the deposited data

Results flagged for a closer look

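Over all hepatocyte nuclei, Cyp2c54 lay on opposite sides of Ctrl in the WD groups. It did not within pericentral-leaning nuclei. There it had 248 and 313 CPM in Ctrl, 20.1 and 63.8 CPM in Pre-T and 195 and 151 CPM in Post-T. Every WD mouse thus lay below both Ctrl mice in these nuclei. Within periportal-leaning nuclei Post-T 1, at 80.4 CPM, lay between the Ctrl mice, at 73.3 and 87.6 CPM. Over all hepatocyte nuclei its mean was 27.3 CPM in Pre-T, both mice below both Ctrl mice. In Post-T it was 164 CPM, both mice above them. Neither difference from Ctrl passed by edgeR, at -2.41 (SE 0.33, adjusted p = 0.117) in Pre-T and 0.51 (SE 0.31, adjusted p = 0.359) in Post-T, and DESeq2 called the Pre-T difference but not the Post-T one (adjusted p = 0.392). The difference between Post-T and Pre-T was 2.92 (SE 0.34, adjusted p = 0.0545) by edgeR with Benjamini-Hochberg adjustment, which did not pass, and it was called in 7 of 23 alternatives, DESeq2 and 6 fits of edgeR.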

How the results depend on the processing

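The direction of the 7 members called in Post-T against Ctrl was kept in all 23 fits. The number of calls depended on the processing, and the cause was not tested. Values are genes called and then members called, first for Pre-T and then for Post-T, both against Ctrl, and last for Post-T relative to Pre-T, where edgeR as described gave 0, 400 and 14 genes and 0, 7 and 0 members. DESeq2 gave 938, 2262 and 1807 genes and 13, 18 and 9 members. Testing all genes with 1 count gave 0, 94 and 0 genes and 0, 4 and 0 members, and edgeR's own filter 0 genes in Post-T against Pre-T. Keeping nuclei with 5000 or more genes gave 562, 506 and 1438 genes and 8, 9 and 8 members. Cyp1, Cyp2 and Cyp3 genes among the variable genes gave 13, 656 and 70 genes and 1, 10 and 3 members. Leiden resolution 2 gave 10, 819 and 244 genes and 1, 12 and 6 members, and naming each nucleus on its own 3, 705 and 266 genes and 1, 12 and 5 members. Thinning to 1000 UMIs gave 19, 470 and 136 genes and 1, 9 and 1 members.

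Chosen after seeing the data, adding cluster 15 gave 1 gene in Pre-T against Ctrl, and 0 genes remained in Post-T against Pre-T with it, with the clusters of mixed markers, without low-depth clusters and, as planned, with all kept nuclei summed. Pericentral-leaning nuclei gave 127 and 90 genes in Post-T against Ctrl and against Pre-T, with 1 member in the latter, and periportal-leaning nuclei 881, 264 and 4 genes, with 13 members in Pre-T against Ctrl. Leaving out 1 mouse gave 0 to 455, 0 to 1906 and 0 to 1532 genes and 0 to 7, 0 to 17 and 0 to 12 members. Cyp2c37 in Post-T against Ctrl turned from 0.71 to -1.38 without Post-T 2 (adjusted p = 0.0378 in edgeR) and to 1.55 without Post-T 1 (adjusted p = 0.0179 in edgeR), so it was called in both directions depending on 1 mouse.

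Replicate numbers do not pair the mice, since deviations of same-numbered mice correlated at -0.183, 0.0755 and -0.232 over 8922 genes. With the replicate block, 0, 31 and 0 genes and 0, 2 and 0 members (Cyp2d9 and Cyp2u1) were called. The zone comparison without the mouse term, that is with no replicate block, gave 881 genes in place of 1624, and leaving out 1 mouse 1247 to 1695 genes and 18 to 21 members.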
